A study of Mus musculus with 12 samples.

Results

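The genes described here are 35 that take up and burn glucose without oxygen, sense oxygen, or are switched on when it is scarce. They were chosen by name for those roles, and each was read from the probe set of a single gene symbol with the highest mean over the 12 arrays. Such a probe set was there for 33 of the 35, among 18194 genes of the whole series that had one, and Gpi1 and Eno1 had none. Of the 33, 30 were tested among 12836 genes. Slc16a3, Car9 and Car12 lay under 5.183, the median of all log2 signals, on all 12 arrays and were not tested.

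The study set neural cells from p53-/- mouse embryos of strain BL6 against lines of the same cells carrying HRasL61, an oncogenic form of HRas, and its title calls such cells glioma-initiating. NSCL61, OPCL61 and ASTL61 were electroporated with the plasmids pCMS-EGFP-HRasL61 and pBabe-neo, selected in neomycin at 0.5 mg/ml and then collected by sorting GFP-positive cells. Their parents were NSC, neural stem cells grown as serum-free spheres from the telencephalon at embryonic day 14.5, OPC and AST. OPC, oligodendrocyte precursor cells, were induced from NSC in 0.25% FCS with bFGF at 2 ng/ml and PDGFAA at 10 ng/ml and then immunopanned. AST, astrocytes, were induced by 10% FCS over 3 weeks. All groups lack p53. The labels give the parents no electroporation, neomycin or sorting, so HRasL61 and those steps cannot be told apart. They also do not say whether the sorted cells were clones, or whether the 2 arrays of a group came from separate cultures, so the p-values measure only the spread between these arrays. Oxygen during culture is not stated in them.

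Glycolysis splits glucose into pyruvate, and lactate dehydrogenase turns pyruvate into lactate, which leaves the cell through monocarboxylate transporters. When oxygen falls, the prolyl hydroxylases encoded by the Egln genes no longer mark the HIF alpha subunits for destruction, and the stabilised HIF dimer binds short motifs ending in CGTG and raises many glycolytic genes. HIF activity is set mostly at the protein level, and oncogenic Ras is known to raise glucose uptake and glycolysis in many cell types.

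Array medians lay between 5.157 and 5.211, and the 3' minus 5' signal of the Gapdh control probe sets lay between -0.28 and -0.09 on the 12 arrays. All 6 oligodendrocyte precursor markers lay above 5.183 in OPC. Among astrocyte markers 3 of 6 did in AST, where Gfap averaged 5.57 and Aqp4, Slc1a2 and Aldh1l1 stayed under the threshold. In OPC, 5 of 6 astrocyte markers lay above it, with a summed signal of 10.87 to 11.08 in OPC, against 7.87 to 8.02 in AST. Among neural stem cell markers 5 of 6 did in NSCL61 and 3 of 6 in NSC, where Sox2 had 4.41 and 6.79, against 11.84 and 11.66 in NSCL61. Pericyte and fibroblast markers were high in NSC, AST and ASTL61. Their summed signal was 8.09 to 8.18 in NSCL61 (3 of 8 above threshold) and 15.48 on both arrays of NSC (8 of 8). It was 8.20 to 8.29 in OPCL61 (4 of 8) and 8.89 to 10.53 in OPC (2 of 8), and 14.41 to 14.59 in ASTL61 and 14.09 to 14.51 in AST (6 of 8 in each). The names NSC and AST are kept as the labels give them, although these defining markers go against them in part. Of 6 endothelial markers Kdr alone lay above the threshold, in every group, and Pecam1 and Cdh5 lay under it. Of 6 microglial markers, Csf1r lay above it in every group and Cd68 in NSCL61, OPCL61 and ASTL61, while Aif1, Cx3cr1, Ptprc and Itgam lay under it throughout.

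More glycolytic and HIF-responsive genes were higher than lower in NSCL61 and in OPCL61 against their parents, and none passed the test in ASTL61. In NSCL61, 11 of the 30 genes tested were higher and 2 were lower than in NSC, where 20.7% of all genes tested were higher and 17.1% lower. In OPCL61, 19 were higher and 2 lower than in OPC, where 24.5% of all genes were higher and 23.9% lower. In ASTL61, limma called 0 higher and 0 lower against AST, as for 0.0234% and 0% of all genes (3 and 0 genes). Without adjustment for multiple tests, p was under 0.05 for 0 of the 30 in ASTL61, against 687 genes higher and 254 lower among all. The median log2 difference of the 30 was 0.41 in NSCL61, 1.14 in OPCL61 and 0.00 in ASTL61, and that of all genes was 0.04, 0.05 and 0.00. The log2 differences in ASTL61 ran from -0.38 for Pfkl and Ddit4 to 0.74 for Ndrg1.

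The 9 genes higher in both NSCL61 and OPCL61 were Slc2a1, Slc2a3, Hk2, Aldoa, Pkm, Ldha, Slc16a1, Egln3 and Ankrd37. Among them are genes of uptake, enzymes along the pathway and lactate export. The share of all genes higher in both lines was not counted, so whether 9 of 30 is unusual cannot be said. A gene was called where limma's Benjamini-Hochberg adjusted p over all 12836 genes was under 0.05, and differences below are on the log2 scale, ± the moderated standard error, with n = 2 arrays a group. Fewer of the 30 were called in NSCL61 without NSCL61 replicate 1, NSCL61 replicate 2 or NSC replicate 2, and in OPCL61 without OPC replicate 2. The share of all genes called was lower in each of these fits too. In RNA from whole cultures, more cells expressing a gene and more of its RNA per cell cannot be told apart. In NSCL61 all 8 pericyte and fibroblast markers were lower than in NSC, and 4 of 6 neural stem cell markers were higher. In OPCL61, 5 of 6 oligodendrocyte precursor markers and 3 of 5 astrocyte markers tested were lower than in OPC, with Olig2 at -5.91 ± 0.25 (adjusted p = 2.22e-07). Cd68, a lysosomal marker of macrophages under the threshold in NSC and OPC, was higher in both lines, by 2.55 ± 0.39 and 3.22 ± 0.39. The endothelial marker Kdr was higher in NSCL61 by 0.70 ± 0.22, which was 1.07 without NSC replicate 1 and 0.32 without NSC replicate 2, and was lost without that array or either NSCL61 array (highest adjusted p 0.186). The part of these markers in the differences was not tested.

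**Figure D1:**
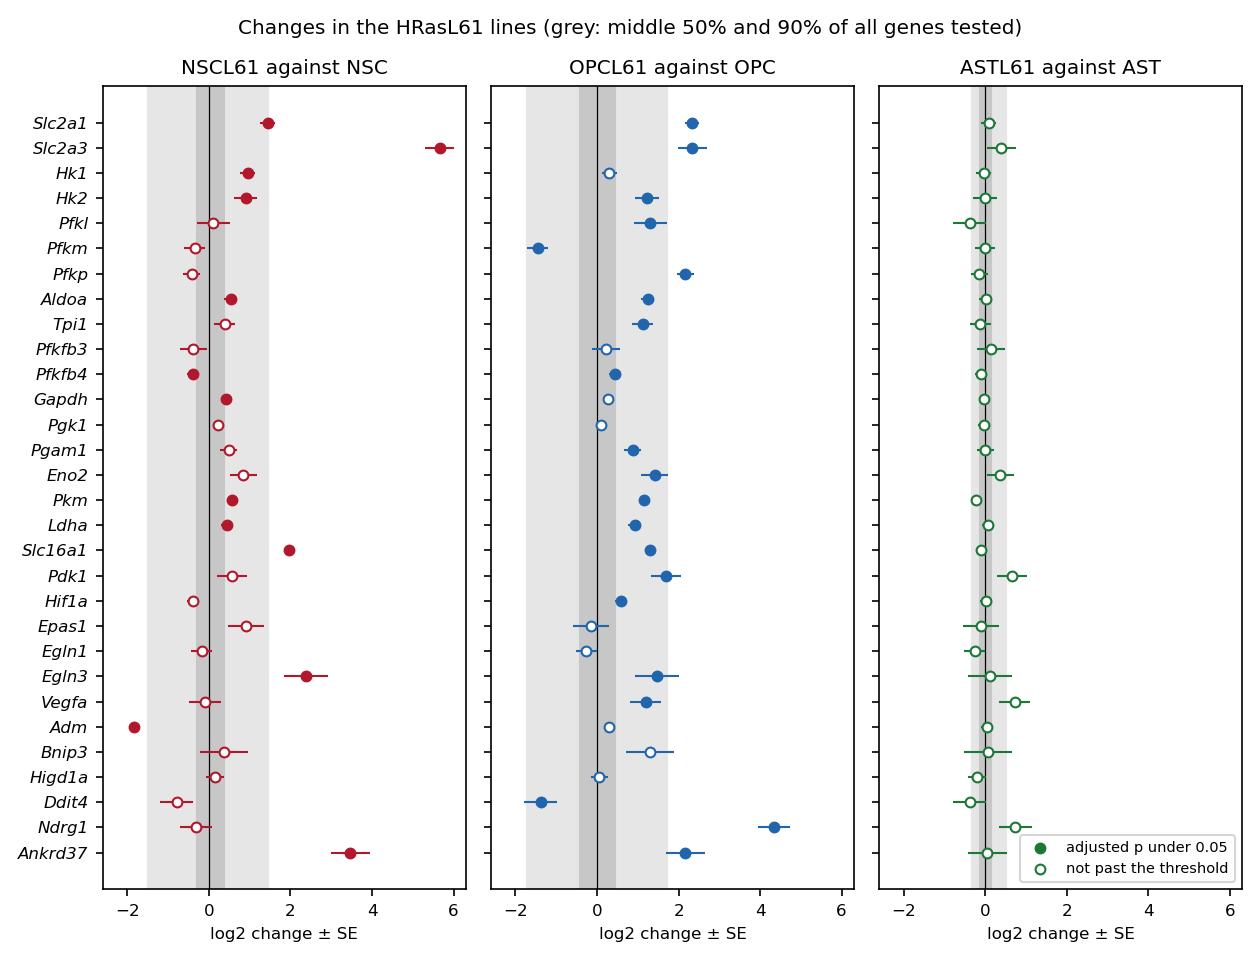
Log2 difference ± SE of the 30 genes tested in each HRasL61 line against its parent (n = 2 arrays a group), with genes down the page by role. Filled points have a limma adjusted p under 0.05 and grey bands span the 25th to 75th and the 5th to 95th percentiles of all 12836 genes. The points lie mostly to the right of 0 in NSCL61 and OPCL61, up to 5.66 for Slc2a3 in NSCL61, and close to 0 in ASTL61.

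The promoters of these genes were searched for ACGTG, a core of the HIF motif, on both strands (CACGT on the strand printed). RefSeq promoters of GRCm38.p6, 250 bases before to 50 after a transcript's start, were in the table for 32 of the 35 genes, 45 promoters in all. ACGTG stood in a promoter of 22 of the 32 genes (68.8%), against 5886 of 27025 genes with a promoter in the table (21.8%). GCGTG, the other core, stood in 62.5% of the 32 and 35.2% of all, and either core in 87.5% and 46.7%. CACGTG, which holds ACGTG on both strands and is also the E-box of Myc, stood in 18.8% and 8.09%. The median G and C content was 62.3% over these promoters and 52.7% over all promoters. ACGTG was in at least 1 promoter of all 8 genes with an entry that rose in both NSCL61 and OPCL61, and of all 5 that passed in no line. It was in 5 of the 10 that rose in 1 line and fell in none, and in 2 of the 3 that fell in 1 line and rose in none. Pfkfb4, which rose in 1 line and fell in 1, had no ACGTG. Aldoa, Pkm and Ldha each also had a promoter without it. A match describes the letters in the window and is no evidence of binding.

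Promoters of 3 genes higher in both NSCL61 and OPCL61 are printed first, then that of Pgk1, which holds ACGTG and passed in no line. Last is that of Pfkp, which rose in OPCL61 and has no ACGTG there, but has GCGTG, the other core, 4 times. The Ldha promoter shown is the one of its 2 that holds ACGTG. Capitals mark ACGTG or CACGT, and CACGTG where both overlap, while GCGTG is not marked. Slc2a1 is at chr4:119108495-119108794 (plus strand), Ldha at chr7:46845554-46845853 (plus), Ankrd37 at chr8:45999801-46000100 (minus), Pgk1 at chrX:106186850-106187149 (plus) and Pfkp at chr13:6648722-6649021 (minus), each printed 5' to 3' on the gene's strand.
Slc2a1: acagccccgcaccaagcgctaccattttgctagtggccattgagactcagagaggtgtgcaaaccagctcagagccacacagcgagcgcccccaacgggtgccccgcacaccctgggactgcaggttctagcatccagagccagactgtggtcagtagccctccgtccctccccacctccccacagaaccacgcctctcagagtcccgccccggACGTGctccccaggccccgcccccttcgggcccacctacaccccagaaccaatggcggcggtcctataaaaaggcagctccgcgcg
Ldha: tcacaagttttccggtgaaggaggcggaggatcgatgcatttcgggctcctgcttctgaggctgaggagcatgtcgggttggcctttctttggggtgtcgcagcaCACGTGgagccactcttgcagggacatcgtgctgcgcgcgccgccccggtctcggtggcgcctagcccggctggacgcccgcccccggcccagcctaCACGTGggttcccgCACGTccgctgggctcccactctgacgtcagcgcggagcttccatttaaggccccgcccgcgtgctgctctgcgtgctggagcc
Ankrd37: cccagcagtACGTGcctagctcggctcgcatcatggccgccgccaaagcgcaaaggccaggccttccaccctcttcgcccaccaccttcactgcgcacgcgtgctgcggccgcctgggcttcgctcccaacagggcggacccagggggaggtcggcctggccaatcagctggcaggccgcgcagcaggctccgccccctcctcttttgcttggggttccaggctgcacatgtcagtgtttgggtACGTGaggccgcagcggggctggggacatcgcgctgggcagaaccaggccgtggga
Pgk1: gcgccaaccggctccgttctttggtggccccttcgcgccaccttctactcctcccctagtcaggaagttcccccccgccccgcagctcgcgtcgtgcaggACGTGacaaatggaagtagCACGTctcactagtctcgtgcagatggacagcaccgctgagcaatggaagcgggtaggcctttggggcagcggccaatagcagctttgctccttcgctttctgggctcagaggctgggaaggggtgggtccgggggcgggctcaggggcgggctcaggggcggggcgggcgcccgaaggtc
Pfkp: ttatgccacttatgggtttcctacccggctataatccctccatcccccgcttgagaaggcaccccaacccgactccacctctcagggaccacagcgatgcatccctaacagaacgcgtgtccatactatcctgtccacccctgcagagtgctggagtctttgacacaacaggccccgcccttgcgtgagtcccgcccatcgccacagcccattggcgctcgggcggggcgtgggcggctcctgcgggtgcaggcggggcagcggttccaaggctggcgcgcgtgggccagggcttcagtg

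Both glucose transporters rose in NSCL61 and in OPCL61. Slc2a1 encodes GLUT1, the widespread basal transporter, and had 11.06 and 11.17 in NSCL61, against 9.62 and 9.74 in NSC. In the other pair it had 10.34 and 9.85 in OPCL61, against 7.62 and 7.91 in OPC, and the arrays of each line lay above those of its parent. The differences were 1.44 ± 0.18 (adjusted p = 2.22e-04) in NSCL61 and 2.33 ± 0.18 (adjusted p = 7.21e-06) in OPCL61. In ASTL61 it had 10.57 and 10.39, against 10.30 and 10.49 in AST, and the arrays of the 2 groups overlapped.

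Slc2a3, which encodes GLUT3, the high-affinity transporter typical of neurons, showed the largest rise of the 30 genes in NSCL61. It had 11.49 and 11.74 in NSCL61, against 6.0 and 5.91 in NSC, a difference of 5.66 ± 0.35 (adjusted p = 3.46e-06), or 50.5-fold. In OPCL61 it had 11.03 and 9.63, against 8.04 and 7.95 in OPC, a difference of 2.34 ± 0.35 (adjusted p = 4.65e-04). The arrays did not overlap in either pair, and OPCL61 replicate 1 stood well above replicate 2. The other 3 probe sets of Slc2a3 differed by 4.36 to 5.62 in NSCL61 and by 2.29 to 2.37 in OPCL61. In ASTL61 it had 6.02 and 6.22, against 5.76 and 5.68 in AST, and did not pass (0.40 ± 0.35).

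**Figure D2:**
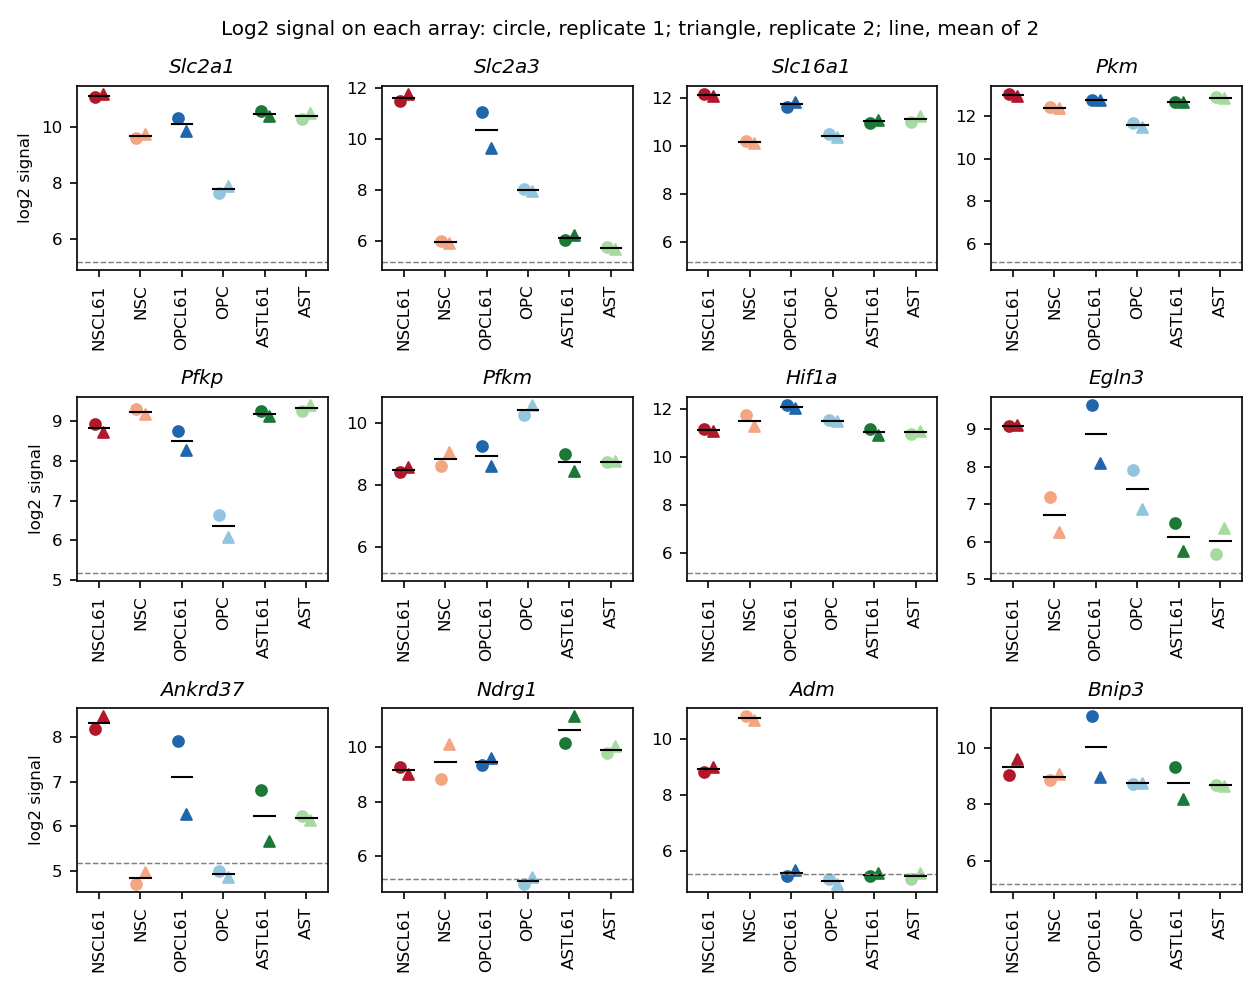
Log2 signal of 12 of the genes on each array, each panel with its own vertical axis, with circles for replicate 1, triangles for replicate 2, a black line for the mean of the 2 and a dashed line at 5.183. Slc2a1, Slc2a3, Slc16a1, Pkm, Egln3 and Ankrd37 are higher in NSCL61 and OPCL61 than in their parents. Pfkp and Ndrg1 are low in OPC alone, and Adm is high in NSCL61 and NSC alone.

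In the first, ATP-consuming steps, 3 of 7 upper glycolysis genes tested were higher in NSCL61, and 5 were higher and 1 lower in OPCL61. Among all genes, 20.7% were higher in NSCL61, and 24.5% were higher and 23.9% lower in OPCL61. Hk1, the housekeeping hexokinase of brain, had 9.94 and 9.73 in NSCL61, against 8.81 and 8.96 in NSC, a difference of 0.95 ± 0.18 (adjusted p = 0.00326). In OPCL61 it had 9.33 and 8.82, against 8.62 and 8.92 in OPC, and the arrays overlapped (0.30 ± 0.18, adjusted p = 0.211). Hk2, the inducible hexokinase, had 9.31 and 9.41 in NSCL61, against 8.93 and 7.99 in NSC, and 8.81 and 8.21 in OPCL61, against 7.13 and 7.44 in OPC. NSC replicate 1 lay nearest to NSCL61, and no arrays overlapped in either pair. Hk2 differed by 0.90 ± 0.29 (adjusted p = 0.0344) in NSCL61 and by 1.23 ± 0.29 (adjusted p = 0.00636) in OPCL61. The call in NSCL61 was lost without either NSCL61 array, NSC replicate 2 (0.43) or either AST array (adjusted p 0.0519 to 0.232), and the difference was 1.37 without NSC replicate 1.

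Of the 3 subunits of phosphofructokinase, which makes the committed step, Pfkp and Pfkl were higher and Pfkm was lower in OPCL61 than in OPC. Pfkp, the platelet-type subunit, had 8.75 and 8.28 in OPCL61, against 6.64 and 6.07 in OPC, a difference of 2.16 ± 0.21 (adjusted p = 3.23e-05). Pfkm, the muscle-type subunit, had 9.25 and 8.62 in OPCL61, against 10.23 and 10.55 in OPC and fell, with a difference of -1.46 ± 0.25 (adjusted p = 0.00113). Neither pair of arrays overlapped, and the levels of both genes in OPCL61 lay nearer to those of the other groups than the levels in OPC did. Pfkl, the liver-type subunit, had 9.99 and 8.62 in OPCL61, against 8.07 and 7.92 in OPC (1.31 ± 0.41, adjusted p = 0.0250). Replicate 1 of OPCL61 carried most of this rise: the difference was 0.63 without it (adjusted p = 0.163) and 2.00 without replicate 2. The Pfkl call was also lost without either OPC array (adjusted p = 0.0711 and 0.107). In NSCL61 these subunits differed by -0.42 ± 0.21 (Pfkp), -0.35 ± 0.25 (Pfkm) and 0.11 ± 0.41 (Pfkl), and none passed.

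Pfkfb3 and Pfkfb4 encode enzymes that make and remove the sugar bisphosphate which activates phosphofructokinase. Pfkfb4 had 6.79 and 6.66 in NSCL61, against 6.99 and 7.26 in NSC, a difference of -0.40 ± 0.14 (adjusted p = 0.0471). In the precursor line it was higher, with 5.81 and 6.01 in OPCL61, against 5.58 and 5.36 in OPC (0.44 ± 0.14, adjusted p = 0.0254). Both differences were small and the arrays did not overlap. The call in NSCL61 was lost without either NSCL61 array, NSC replicate 2, or any of the OPC, ASTL61 and AST arrays (adjusted p 0.0502 to 0.258, and -0.27 without NSC replicate 2). That in OPCL61 was lost without OPCL61 replicate 2 or OPC replicate 2 (adjusted p 0.135 and 0.160). Pfkfb3 had 7.71 and 6.46 in OPCL61, against 7.05 and 6.68 in OPC, where the arrays overlapped, and passed in no line.

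Aldoa, the main aldolase of most tissues, had 11.96 and 11.81 in NSCL61, against 11.44 and 11.27 in NSC, and 12.37 and 11.92 in OPCL61, against 11.03 and 10.78 in OPC. The arrays of neither pair overlapped. The differences were 0.53 ± 0.16 (adjusted p = 0.0292) and 1.24 ± 0.16 (adjusted p = 2.25e-04), and the call in NSCL61 was lost without either NSCL61 array or NSC replicate 2 (adjusted p 0.0686 to 0.160). Tpi1, which interconverts the triose phosphates, had 11.40 and 10.54 in OPCL61, against 10.04 and 9.65 in OPC (1.12 ± 0.26, adjusted p = 0.00652). OPCL61 replicate 1 was the higher: without it the Tpi1 difference was 0.69, and without OPC replicate 2 it was 0.93 and no longer called (adjusted p = 0.0557).

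In the ATP-yielding steps, 2 of 5 genes were higher in NSCL61 and 3 in OPCL61, beside 20.7% and 24.5% of all genes. Pkm, the pyruvate kinase of most tissues, had 13.01 and 12.91 in NSCL61, against 12.40 and 12.39 in NSC, and 12.73 and 12.75 in OPCL61, against 11.68 and 11.49 in OPC. The 2 OPCL61 arrays lay within 0.02 of each other, and no arrays overlapped. Pkm differed by 0.56 ± 0.10 (adjusted p = 0.00253) in NSCL61 and 1.16 ± 0.10 (adjusted p = 2.17e-05) in OPCL61, and the splice forms of Pkm were not told apart. Gapdh, measured by array control probe sets only, had 13.91 and 13.88 in NSCL61, against 13.58 and 13.34 in NSC, a difference of 0.43 ± 0.12 (adjusted p = 0.0201). The Gapdh call was lost without either NSCL61 array or NSC replicate 2 (adjusted p 0.0791 to 0.131).

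Pgam1, phosphoglycerate mutase, had 11.98 and 11.58 in OPCL61, against 11.18 and 10.63 in OPC (0.88 ± 0.21, adjusted p = 0.00631). The call on Pgam1 was lost without OPC replicate 2 (adjusted p = 0.0551). Eno2, the neuronal enolase, had 6.16 and 4.84 in OPCL61, against 3.97 and 4.20 in OPC (1.41 ± 0.33, adjusted p = 0.00588). OPCL61 replicate 2 and both OPC arrays were under the threshold of 5.183, so that their signal may be background, and without OPCL61 replicate 1 the difference was 0.75 (adjusted p = 0.00286). Pgk1, phosphoglycerate kinase, was nearly flat: it had 13.05 and 13.10 in NSCL61, against 12.80 and 12.91 in NSC, and 13.09 and 12.72 in OPCL61, against 12.84 and 12.77 in OPC, and passed in no line.

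All 3 tested genes of lactate and pyruvate fate were higher in OPCL61, and 2 in NSCL61, beside 24.5% and 20.7% of all genes. Ldha, the lactate dehydrogenase subunit that favours lactate, had 12.35 and 12.39 in NSCL61, against 12.09 and 11.76 in NSC, and 12.42 and 12.06 in OPCL61, against 11.28 and 11.37 in OPC. Its differences were 0.44 ± 0.15 (adjusted p = 0.0479) and 0.92 ± 0.15 (adjusted p = 9.64e-04), with no overlap in either pair. The one in NSCL61 was close to the threshold and was lost without either NSCL61 array, NSC replicate 2 (0.28), or any of the OPC, ASTL61 and AST arrays (adjusted p 0.0555 to 0.274).

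Slc16a1, the lactate transporter MCT1, had 12.14 and 12.08 in NSCL61, against 10.19 and 10.11 in NSC, and 11.61 and 11.84 in OPCL61, against 10.48 and 10.36 in OPC. Both lines lay more than 1 log2 unit above their parents. The differences were 1.96 ± 0.13 (adjusted p = 4.68e-06) and 1.31 ± 0.13 (adjusted p = 3.67e-05), and ASTL61 had 10.94 and 11.09, against 11.00 and 11.23 in AST. The exporter MCT4, from Slc16a3, had 5.14 and 5.12 in NSCL61, against 4.35 and 4.30 in NSC, all under the threshold. Pdk1, which shuts pyruvate dehydrogenase down, had 8.77 and 7.52 in OPCL61, against 6.46 and 6.44 in OPC (1.69 ± 0.37, adjusted p = 0.00423). OPCL61 replicate 1 was the higher array, and without it the Pdk1 difference was 1.07. A second Pdk1 probe set differed by 2.43 in OPCL61 and by 1.33 in ASTL61, against 0.66 for the one used in ASTL61.

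Of the HIF alpha subunits and oxygen sensors, 1 of 4 tested was higher in NSCL61 and 2 in OPCL61. Of all genes, 20.7% and 24.5% were higher in these lines. Hif1a, HIF-1 alpha, had 12.15 and 12.04 in OPCL61, against 11.55 and 11.48 in OPC, a difference of 0.58 ± 0.15 (adjusted p = 0.0119). In the stem cell pair it had 11.16 and 11.08 in NSCL61, against 11.73 and 11.29 in NSC, in the other direction and not past the threshold (-0.39 ± 0.15, adjusted p = 0.0769). The next Hif1a probe sets by signal differed by -0.58 and -0.60 in NSCL61, and by 0.87 and 0.60 in OPCL61. The fall in NSCL61 passed with the second highest probe set and with the mean of the probe sets. A last probe set, under the threshold in every group, differed by -0.08 in NSCL61. The OPCL61 call was lost without OPCL61 replicate 1 (0.53, adjusted p = 0.0556) or OPC replicate 2 (0.55, adjusted p = 0.0635). Epas1, HIF-2 alpha, had 9.31 and 8.03 in OPCL61, against 8.84 and 8.80 in OPC, and 7.65 and 7.59 in NSCL61, against 7.26 and 6.18 in NSC, and passed in no line. Its second probe set put OPCL61 above OPC by 0.71 (adjusted p = 0.0105) and NSCL61 above NSC by 0.59 (adjusted p = 0.0318). Egln1, the main prolyl hydroxylase, had 9.62 and 8.77 in OPCL61, against 9.52 and 9.39 in OPC, and passed in no line.

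Egln3, the prolyl hydroxylase that is itself induced by HIF, had 9.09 and 9.11 in NSCL61, against 7.19 and 6.27 in NSC, and 9.64 and 8.10 in OPCL61, against 7.92 and 6.88 in OPC. The 2 NSCL61 arrays were nearly equal, while in NSC, OPCL61 and OPC replicate 1 was the higher by 0.92 or more. Its differences were 2.37 ± 0.54 (adjusted p = 0.00753) and 1.47 ± 0.54 (adjusted p = 0.0479). A second Egln3 probe set, lower in signal, differed by 1.36 in NSCL61 and by 0.93 in OPCL61, and neither call held with it. With the mean of the probe sets the call in OPCL61 was lost too. The call in NSCL61 was lost without NSC replicate 2 (1.91, adjusted p = 0.0552). The difference in OPCL61, close to the threshold, was 0.70 without OPCL61 replicate 1 and 2.24 without replicate 2. That call was lost without OPCL61 replicate 1, OPC replicate 2 (0.95) or any NSCL61, ASTL61 or AST array (adjusted p 0.0530 to 0.316).

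Among secreted factors, Vegfa was called higher in OPCL61 and Adm lower in NSCL61. Vegfa, the angiogenic growth factor, had 8.84 and 7.52 in OPCL61, against 6.96 and 7.03 in OPC, a difference of 1.19 ± 0.39 (adjusted p = 0.0294). The rise stood mostly on OPCL61 replicate 1: it was 0.53 without it (adjusted p = 0.194) and 1.85 without replicate 2, and the call was also lost without either OPC array (adjusted p 0.0940 and 0.105). Vegfa in ASTL61 had 8.40 and 9.30, against 8.23 and 8.03 in AST, and did not pass (0.72 ± 0.39). Adm, the vasodilator peptide adrenomedullin, had 8.81 and 9.00 in NSCL61, against 10.80 and 10.67 in NSC and fell, with a difference of -1.83 ± 0.14 (adjusted p = 1.02e-05). In the other 4 groups Adm lay near or under the threshold, between 4.83 and 5.31.

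In the remaining group, Ankrd37, a HIF-induced ankyrin repeat gene, had 8.17 and 8.46 in NSCL61, against 4.71 and 4.97 in NSC. In the other pair it had 7.91 and 6.29 in OPCL61, against 5.01 and 4.87 in OPC, with OPCL61 replicate 1 the higher. All parental arrays in these pairs were under the threshold, so the differences of 3.47 ± 0.48 (adjusted p = 4.66e-04) and 2.16 ± 0.48 (adjusted p = 0.00472) may be lower bounds. Without OPCL61 replicate 1 the difference in OPCL61 was 1.35 (adjusted p = 0.0195). Ndrg1, a stress and differentiation gene known in myelinating cells, had 9.35 and 9.58 in OPCL61, against 5.01 and 5.24 in OPC. OPC replicate 1 was under the threshold and replicate 2 just above it, and the difference of 4.34 ± 0.40 (adjusted p = 2.54e-05) was the largest rise of the 30 in OPCL61. Over its other 4 probe sets the Ndrg1 difference ran from 2.21 to 4.19.

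Ddit4, an inhibitor of mTORC1, had 9.62 and 8.52 in OPCL61, against 10.33 and 10.56 in OPC and fell, with a difference of -1.38 ± 0.40 (adjusted p = 0.0179). The call was lost without OPCL61 replicate 2 (-0.83, adjusted p = 0.133) or either OPC array (adjusted p 0.0503 and 0.0922). Bnip3, a mitophagy receptor induced by HIF, had 11.12 and 8.96 in OPCL61, against 8.73 and 8.76 in OPC, and did not pass (1.30 ± 0.59, adjusted p = 0.0995). Only OPCL61 replicate 1 stood apart from the OPC arrays by more than 1. Higd1a, a mitochondrial protein induced by hypoxia, had 11.43 and 10.75 in OPCL61, against 11.20 and 10.85 in OPC and passed in no line. Its other 2 probe sets differed by -1.66 and -1.33 in OPCL61, the last of them under the threshold in every group. Carbonic anhydrases Car9 and Car12, which buffer acid outside the cell, reached at most 5.04 and 4.76 on any array.

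**Figure D3:**
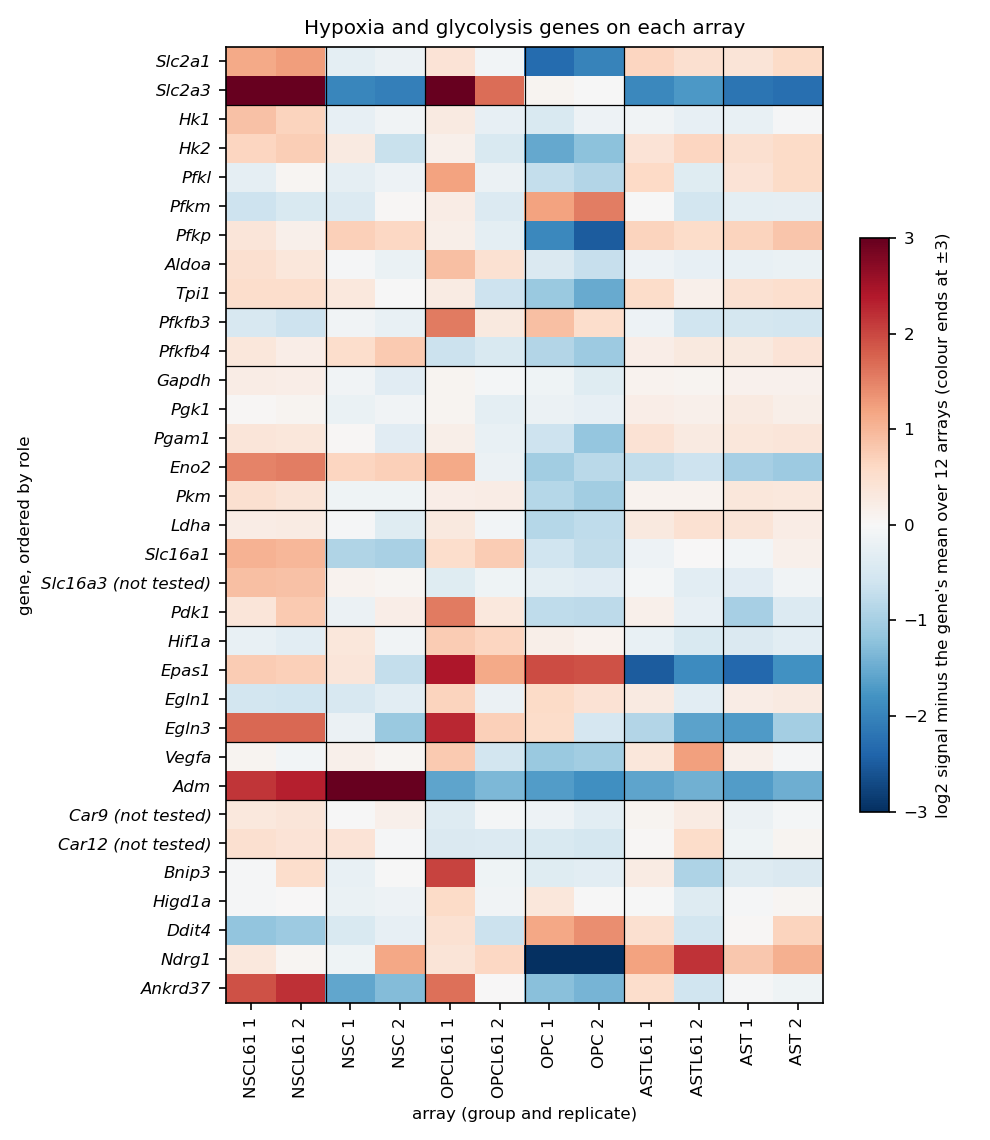
Log2 signal of 33 genes on each of the 12 arrays, as the deviation from the gene's own mean over the arrays (red above, blue below), with genes down the page by role and arrays in columns by group and replicate. OPC is below its gene means in most glycolytic rows, and NSCL61 is above in most. OPCL61 replicate 1 is redder than replicate 2 in most rows, but not in Ndrg1, Slc16a1, Adm, Pfkfb4, Pkm or the rows not tested.

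The changes of the 3 lines were set against each other directly. By a moderated F test in limma with Benjamini-Hochberg adjustment, the 3 changes were unequal for 14 of the 30 genes, against 50.6% of all genes tested. Slc2a3 rose more in NSCL61 than in OPCL61, with an OPC line change minus NSC line change of -3.31 ± 0.49 (adjusted p = 6.93e-04). Ndrg1 and Pfkp went the other way, by 4.66 ± 0.57 (adjusted p = 2.12e-04) and 2.58 ± 0.29 (adjusted p = 1.44e-04) on the same difference. The change of Hif1a was also the higher in OPCL61, by 0.97 ± 0.22 (adjusted p = 0.00706), and the changes of Adm differed by 2.13 ± 0.19 (adjusted p = 3.51e-05). Against the astrocyte line, the stem cell line changed more for Slc16a1 and Ankrd37, with an AST line change minus NSC line change of -2.06 ± 0.18 (adjusted p = 6.21e-05) and -3.42 ± 0.68 (adjusted p = 0.00603). The precursor line changed more than the astrocyte line for Slc2a1 (2.24 ± 0.25, adjusted p = 1.78e-04), Pkm (1.38 ± 0.15, adjusted p = 1.47e-04) and Aldoa (1.23 ± 0.23, adjusted p = 0.00315). The differences between the changes of Hk2, Pfkl, Gapdh, Tpi1, Pgam1, Eno2, Pdk1, Egln3, Vegfa and Ddit4 did not pass the F test. Taken pairwise, the OPC line change minus AST line change passed for Hk2 (1.22 ± 0.41, adjusted p = 0.0431), Pfkl (1.69 ± 0.58, 0.0481), Tpi1 (1.24 ± 0.37, 0.0298) and Pgam1 (0.87 ± 0.29, 0.0425). Of 12 fits without 1 array, the call was lost in 9 for Hk2, 10 for Pfkl, 5 for Tpi1 and 8 for Pgam1. For Gapdh, Eno2, Pdk1, Egln3, Vegfa and Ddit4 no pairwise difference passed, so their calls in some lines and not in others are no tested difference. Fewer of the 30 passed the F test without OPC replicate 2, and more without OPCL61 replicate 2. The share of all genes passing was lower in both fits. The F test calls on Hk1, Pfkm, Pfkfb4 and Ldha were each lost without some array: for Hk1 NSCL61 1, NSC 1, ASTL61 2 or AST 2, for Pfkm OPCL61 2 or OPC 2, for Pfkfb4 NSCL61 2 or OPC 2, and for Ldha NSCL61 1, OPCL61 1, either OPC array, ASTL61 1 or AST 1 (highest adjusted p 0.104, 0.0736, 0.0616 and 0.0779).

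The 3 parents already differed, and most glycolytic genes had their lowest signals in OPC. Against NSC, 13 of the 30 genes were lower in OPC and 5 higher, where 24.3% of all genes were lower and 27.2% higher. Against AST, 14 were lower in OPC and 5 higher, where 25.6% of all genes were lower and 26.1% higher. The median of the 30 was -0.33 against NSC and -0.37 against AST (all genes -0.01 and -0.06). Slc2a1, Hk2, Pfkp, Pfkfb4, Tpi1, Pgam1, Pkm, Ldha, Vegfa and Ndrg1 were lower in OPC than in both. Pfkp differed by -2.89 ± 0.21 (adjusted p = 3.21e-06) from NSC and by -2.97 ± 0.21 (adjusted p = 3.10e-06) from AST, and Slc2a1 by -1.92 ± 0.18 (adjusted p = 1.63e-05) and -2.63 ± 0.18 (adjusted p = 2.38e-06). Slc2a3, Pfkm and Epas1 were higher in OPC than in both, Epas1 by 2.10 ± 0.44 (adjusted p = 0.00318) and 4.02 ± 0.44 (adjusted p = 6.00e-05), though its second probe set put OPC -0.12 from NSC. Some calls against NSC were lost without 1 array: Hk2 without OPC replicate 1 (highest adjusted p 0.0535), Pgam1 without NSC replicate 1 or OPC replicate 2 (0.107), and Ldha without NSC replicate 1 or OPC replicate 1 (0.0691). The Hk2 difference was -0.71 without NSC replicate 1. The Vegfa calls were lost without any 1 of the 4 arrays compared, against NSC (highest adjusted p 0.105) and against AST (0.133). These comparisons share OPC arrays, and OPC is also the parent in OPCL61 against OPC.

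Fewer genes were called between AST and NSC: 4 of the 30 were higher in AST and 4 lower, where 15.4% of all genes were higher and 15.0% lower. Adm had 4.99 and 5.21 in AST, against 10.80 and 10.67 in NSC, a difference of -5.64 ± 0.14 (adjusted p = 8.79e-08), and lay near the threshold in AST. Slc16a1 was higher in AST, with 11.00 and 11.23 in AST, against 10.19 and 10.11 in NSC (0.97 ± 0.13, adjusted p = 6.80e-04). The other higher genes were Slc2a1, Pkm and Ldha, and the other lower ones Eno2, Hif1a and Epas1. Slc2a1 was lost without NSC replicate 1 or AST replicate 2 (highest adjusted p 0.0969), Pkm without AST replicate 1 (0.0521), and Epas1 without NSC replicate 1 or AST replicate 1 (0.0757). Ldha was lost without either NSCL61 array, NSC replicate 2 or either AST array (0.191). Hif1a was lost without either NSCL61 array, NSC replicate 1, either OPC array or either AST array (0.238). Fewer of the 30 were called without either AST array, and so was a smaller share of all genes. Pericyte and fibroblast markers were lower in OPC than in NSC (8 of 8) and AST (5 of 8), and in AST than in NSC (7 of 8). Astrocyte markers were higher in OPC than in NSC (5 of 5 tested, median 2.05) and AST (4 of 5, median 2.71). Oligodendrocyte precursor markers were higher in OPC than in NSC (4 of 6, median 2.87) and AST (5 of 6, median 4.35). The part of these markers in the differences was not tested.

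The lines also differed from each other in some of the 30 genes. In OPCL61 against NSCL61, 3 were higher and 6 lower, where 13.3% of all genes were higher and 13.4% lower. In ASTL61 against NSCL61, 1 was higher and 11 lower, where 16.1% of all genes were higher and 16.6% lower. In OPCL61 against ASTL61, 8 were higher and 3 lower, where 18.9% of all genes were higher and 17.7% lower. Slc2a3 was lower in ASTL61 than in NSCL61, with a difference of -5.49 ± 0.35 (adjusted p = 6.24e-06), and higher in OPCL61 than in ASTL61 by 4.21 ± 0.35 (adjusted p = 2.76e-05). Adm stayed highest in NSCL61, at -3.70 ± 0.14 for OPCL61 and -3.76 ± 0.14 for ASTL61 against it. Epas1 was low in ASTL61, with 4.39 and 5.00 in ASTL61, against 7.65 and 7.59 in NSCL61 (-2.93 ± 0.44, adjusted p = 0.00101). Hif1a was highest in OPCL61, by 0.97 ± 0.15 (adjusted p = 0.00178) against NSCL61 and 1.04 ± 0.15 (adjusted p = 8.07e-04) against ASTL61. Fewer of the 30 were called in OPCL61 against NSCL61 without either NSCL61 array, and in ASTL61 against NSCL61 without NSCL61 replicate 2. The same held for OPCL61 against ASTL61 without ASTL61 replicate 2. The share of all genes called was lower in each of these fits too. Pericyte and fibroblast markers were higher in ASTL61 than in NSCL61 (7 of 8, median 5.08) and lower in OPCL61 than in ASTL61 (7 of 8, median -5.26), and their part in these differences was not tested. The range of the 3 group means had a median over the 30 genes of 0.90 in the lines and 1.29 in the parents, and over all genes of 0.52 and 0.67. It was narrower in the lines for 60.0% of the 30 genes and 63.0% of all.

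The 2 OPCL61 arrays differed from each other in most of these genes. Replicate 1 was the higher in 25 of the 30, with a median gap of 0.62, while the median over all genes was 0.00. The gap was over 0.5 in 17 genes with replicate 1 the higher, as for 9.36% of all genes, and in 0 the other way. The widest gaps were in Bnip3 (2.16), Ankrd37 (1.63), Egln3 (1.54) and Slc2a3 (1.40). The gap went the other way in Ndrg1 (-0.23), Slc16a1 (-0.23), Adm (-0.22), Pfkfb4 (-0.20) and Pkm (-0.02). Of 39 other hypoxia-inducible genes, 29 were higher in replicate 1, with a median gap of 0.49. In the other 5 groups the median gap of the 30 ran from -0.08 to 0.13. In ASTL61, 7 of the 30 were higher in replicate 1 by over 0.5 and 3 in replicate 2, Bnip3 being the widest at 1.15. The Gapdh 3' minus 5' signal was -0.09 in OPCL61 replicate 1 and -0.18 in replicate 2. The labels give no difference in handling between the 2 arrays, and the cause of the gap was not tested.

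**Figure D4:**
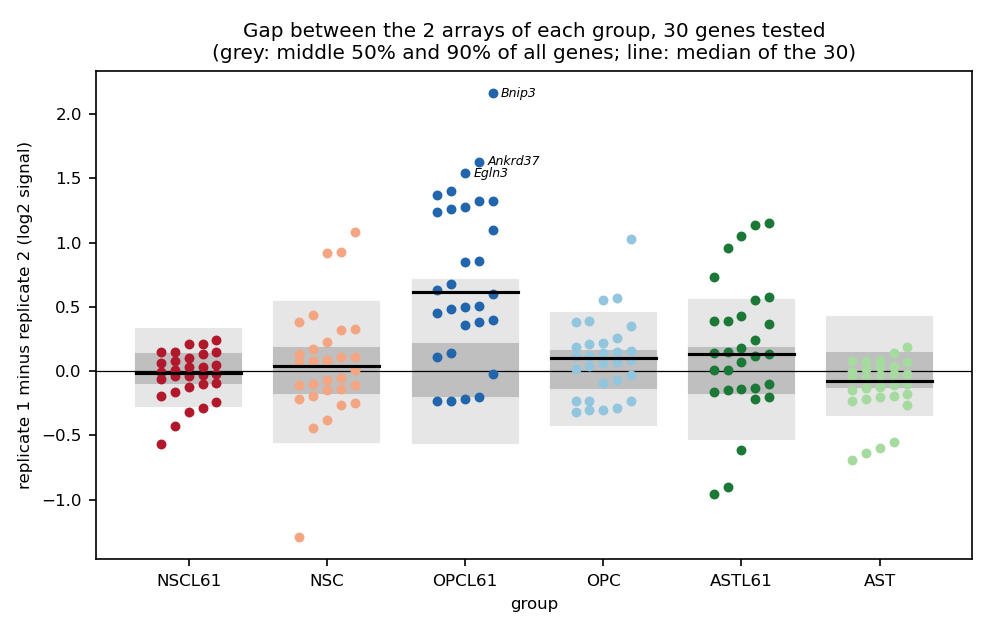
Replicate 1 minus replicate 2 in log2 signal for the 30 genes tested in each group (points), with their median (black line) and the 25th to 75th and 5th to 95th percentiles of all genes (grey). In OPCL61 the median lies at 0.62 and Bnip3 reaches 2.16, while the medians of the other 5 groups lie within 0.13 of 0.

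Other genes of glucose and oxygen handling, listed for their roles, are given beside the share of all genes called. Of 39 other hypoxia-inducible genes tested, 10 were higher and 6 lower in NSCL61 (median 0.15), and 16 higher and 4 lower in OPCL61 (median 0.38). These are 25.6% and 15.4% in NSCL61, close to the 20.7% and 17.1% of all genes, and 41.0% and 10.3% in OPCL61, beside 24.5% and 23.9% of all genes. Cxcr4, a chemokine receptor, had 9.43 and 9.17 in NSCL61, against 3.78 and 3.19 in NSC (log2 difference 5.81 ± 0.26, adjusted p = 5.26e-07). Stc1, a secreted glycoprotein, had 9.82 and 9.15 in OPCL61, against 5.96 and 5.20 in OPC (log2 difference 3.91 ± 0.29, adjusted p = 6.19e-06), and P4ha2, a collagen prolyl hydroxylase, 8.50 and 7.43 in OPCL61, against 4.06 and 4.05 in OPC (log2 difference 3.91 ± 0.28, adjusted p = 4.94e-06). P4ha2 fell in NSCL61, by 2.80 ± 0.28 (adjusted p = 5.70e-05), so that the same gene moved in opposite directions. Cxcr4 in NSC and P4ha2 in OPC lay under the threshold, so these differences may be lower bounds. Gbe1, the glycogen branching enzyme, had 7.87 and 7.78 in NSCL61, against 5.83 and 6.20 in NSC (log2 difference 1.81 ± 0.16, adjusted p = 2.66e-05), Angpt2 differed by 1.46 ± 0.14 in NSCL61 and Anxa2 by 6.23 ± 0.28 in OPCL61.

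Isoenzymes and regulators outside the 35 were called about as often as all genes in NSCL61: of 15 tested, 3 were higher and 2 lower (20.0% and 13.3%, beside 20.7% and 17.1% of all genes). In OPCL61, 2 were higher and 4 lower (13.3% and 26.7%, beside 24.5% and 23.9%). Aldoc, the brain aldolase, had 8.90 and 8.23 in OPCL61, against 13.52 and 13.58 in OPC (log2 difference -4.98 ± 0.35, adjusted p = 4.65e-06), beside the rise of Aldoa. Bpgm differed by -2.22 ± 0.25 in OPCL61 and Eno3 by -2.23 ± 0.35 in NSCL61. Pgm2, a phosphopentomutase, was higher in both, by 1.10 ± 0.19 and 1.68 ± 0.19, and Tigar in NSCL61 by 0.64 ± 0.14, which was lost without NSCL61 replicate 1 (0.42, adjusted p = 0.0503). Of 5 other transporters, 1 fell in each line (20.0%, beside 17.1% of all genes in NSCL61 and 23.9% in OPCL61), with a difference of -2.66 ± 0.13 for Slc2a10 in NSCL61 and -0.54 ± 0.15 for Slc2a8 in OPCL61, the last lost without OPCL61 replicate 2 or either OPC array (highest adjusted p 0.0990).

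Of 12 pentose phosphate and gluconeogenesis genes, 1 was higher and 3 lower in NSCL61 (8.33% and 25%, beside 20.7% and 17.1% of all genes), and 1 higher and 4 lower in OPCL61 (8.33% and 33.3%, beside 24.5% and 23.9%). Pcx, pyruvate carboxylase, fell in both, with differences of -1.14 ± 0.21 and -1.32 ± 0.21. Pck2 differed by -2.88 ± 0.24 and Taldo1 by 1.18 ± 0.12 in NSCL61, and Fbp1 by -2.30 ± 0.18 and Rpia by -0.74 ± 0.13 in OPCL61. Of 37 pyruvate dehydrogenase, TCA cycle and respiratory chain genes, 3 were higher and 5 lower in NSCL61 (8.11% and 13.5%), and 6 higher and 10 lower in OPCL61 (16.2% and 27.0%), with the lower ones near the shares of all genes. Mpc1, a subunit of the mitochondrial pyruvate carrier, had 8.12 and 8.99 in OPCL61, against 11.15 and 11.26 in OPC (log2 difference -2.65 ± 0.31, adjusted p = 1.05e-04). Pdk4 and Pdk3 differed by -3.78 ± 0.37 and -1.28 ± 0.14 in NSCL61, while Pdp1, which reactivates pyruvate dehydrogenase, rose by 2.68 ± 0.15. In OPCL61 Pdk2 and Ndufa4 differed by -1.44 ± 0.12 and -1.27 ± 0.14. Slc2a10 and Pdk4 in NSCL61 and Fbp1 and Pdk2 in OPCL61 lay under the threshold, so the size of those falls may be a lower bound.

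Of 17 other HIF pathway regulators, 2 were higher and 5 lower in NSCL61 (11.8% and 29.4%, beside 20.7% and 17.1% of all genes). In OPCL61 5 were higher and 4 lower (29.4% and 23.5%), near the 24.5% and 23.9% of all genes. Vhl, the ubiquitin ligase subunit that recognises hydroxylated HIF, had 7.17 and 6.76 in OPCL61, against 8.12 and 8.51 in OPC (log2 difference -1.35 ± 0.17, adjusted p = 1.43e-04). Siah2, a ligase for prolyl hydroxylases, rose by 1.32 ± 0.19 and Cited2, a HIF antagonist, by 1.59 ± 0.24 in OPCL61. Arnt2 and Arnt, HIF beta subunits, had differences of -2.15 ± 0.20 and -0.65 ± 0.13 in NSCL61, and Os9 one of -0.54 ± 0.12, a call lost without NSCL61 replicate 2 or NSC replicate 2 (highest adjusted p 0.0523). Of 14 ATF4 and endoplasmic reticulum stress genes, limma called 0 higher and 7 lower in NSCL61 (median -0.74, with 0 higher at an unadjusted p under 0.05), and 6 higher and 1 lower in OPCL61 (median 0.56). These are 0% and 50% in NSCL61 and 42.9% and 7.14% in OPCL61, beside the same shares of all genes. Trib3, Herpud1 and Atf4 differed by -2.63 ± 0.38, -1.71 ± 0.15 and -0.90 ± 0.14 in NSCL61. Cebpb, Atf3 and Hspa5 differed by 3.41 ± 0.19, 0.81 ± 0.13 and 0.76 ± 0.14 in OPCL61. In ASTL61, limma called 0 genes of these 7 lists, and without adjustment p was under 0.05 for 5 hypoxia-inducible genes, 2 of the TCA and respiratory list and 2 of the stress list.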

How the data were processed

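Total RNA of 12 mouse samples in 6 groups of 2 was labelled with biotin and read on 1-colour arrays, 5 µg of RNA each, per the labels' protocols. For 45101 probe sets the authors deposited signals on a log2 scale. The sources used here do not state how background, summarisation and normalization were handled. These values were taken as they stand, with array medians between 5.157 and 5.211, and the number of arrays limits the precision.

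Probe sets were named by a table of the array's annotation (34958 with 1 symbol, 932 with several, 9160 without a name and 64 controls) and updated through RefSeq of GRCm38.p6, which changed 0 symbols. Probe sets under 5.183 in every group mean were left out, and of the others the one with the highest mean over the 12 arrays stood for its gene. Controls were left out, except for Gapdh, named by controls only. The introduced HRas and the p53 gene were not analysed here.

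One linear model of 6 group means was fitted to 12836 genes in limma 3.58.1 under R 4.3.3, with 6 residual degrees of freedom (9.302 after moderation), 2-sided tests and Benjamini-Hochberg adjustment over all genes at 0.05. The F test asked whether the 3 line changes were equal. Summed marker signals are log2 of the sum of linear signals. Names come from the 35 members and, per list and line, up to 3 called genes with the smallest p; P4ha2 in NSCL61 was named after its values were seen. Members and lists were chosen with earlier results of these data known. The fit was tested on simulated data.

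Alternatives were quantile normalization, median centring, all probe sets without filtering, a stricter filter at 7.562 (the 75th percentile), other choices of probe set, controls kept, array weights, a prior that is trended and robust, the replicate number as a block, fits of the groups compared alone, a log2 change of at least 1, and leaving out each array. Over all genes, same-numbered arrays of a line and its parent did not deviate together (correlations 0.07, 0.02 and -0.03). This cannot tell whether they were paired, since a pairing need not shift all genes. The main fit used no pairs, as the labels state none. Promoters came from RefSeq's table and were searched with Python 3.11.15.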

Additional observations from a re-analysis of the deposited data

Results flagged for a closer look

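For 14 of the 30 genes (46.7%) the changes of the 3 lines against their parents were unequal by limma's F test with Benjamini-Hochberg adjustment. The same held for 50.6% of all genes tested, so these genes passed no more often than others. The value given is the largest gap between the log2 changes of any pair of lines. The gap was 5.25 for Slc2a3 (NSCL61 over ASTL61, adjusted p = 9.62e-05), 3.42 for Ankrd37 (0.00713), 2.06 for Slc16a1 (6.17e-05) and 0.99 for Hk1 (0.0283), each between NSCL61, with the highest change, and ASTL61, with the lowest. It was 4.66 for Ndrg1 (3.59e-04), 2.58 for Pfkp (1.89e-04), 2.13 for Adm (4.97e-05), 0.97 for Hif1a (0.0142) and 0.84 for Pfkfb4 (0.0158), each between OPCL61, the highest, and NSCL61, the lowest. It was 2.24 for Slc2a1 (2.68e-04), 1.38 for Pkm (2.17e-04), 1.23 for Aldoa (0.00552) and 0.85 for Ldha (0.0267), each between OPCL61 and ASTL61, the lowest. For Pfkm it was 1.45 (0.0175), between ASTL61, the highest, and OPCL61, the lowest. Numbers in brackets are adjusted p-values.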

How the results depend on the processing

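Of 34 called changes in the 3 line comparisons, 19 passed the threshold under every one of up to 23 alternatives. Another 15 were lost under at least 1 of them, and 11 of 56 changes not called passed under some alternative. The setting of a log2 change of at least 1 was not among the alternatives counted here. At a log2 change of at least 1, the members called numbered 6 of 30 in NSCL61 against NSC (13 otherwise) and 3 in AST against NSC (8). They numbered 5 in OPCL61 against NSCL61 (9) and 7 in OPCL61 against ASTL61 (11), as that setting drops small changes. The shares of all genes called at that setting were 16.4%, 10.4%, 10.3% and 14.4%, in the same order. A fit of only the arrays compared gave 4 for OPCL61 against NSCL61 and 7 for OPCL61 against ASTL61, with fewer residual degrees of freedom. It called 21.3% and 20.2% of all genes. Leaving out 1 array gave 8 to 14 for NSCL61 against NSC, 13 to 22 for OPCL61 against OPC (21 otherwise), 0 to 0 for ASTL61 against AST, 13 to 20 for OPC against NSC, 4 to 11 for AST against NSC, 13 to 23 for OPC against AST, 5 to 13 for OPCL61 against NSCL61, 7 to 15 for ASTL61 against NSCL61, 7 to 15 for OPCL61 against ASTL61, and 11 to 23 for the F test. The lone array left in a group was then assumed to vary like the other groups. The share of all genes called also changed with the array left out. With the replicate number as a block, the calls were 12 in NSCL61, 20 in OPCL61, 0 in ASTL61 and 14 in the F test. The block called 34.8%, 45.6%, 0.00779% and 44.9% of all genes, in that order. The replicate numbers share no pairing that the labels state. Other probe sets turned 2 genes in OPCL61 against OPC: Epas1 to 0.71 (second highest probe set), and Higd1a to -0.80 (mean of probe sets) and -1.66 (second highest); the cause was not tested. With 2 arrays a group and probe sets near 5.183, small differences are not resolved.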
